A study of Mus musculus with 18 samples.

Results

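The genes of the motile cilium and its axoneme were followed in primary cortical astrocyte cultures of the mouse, in RNA bound to astrocyte ribosomes and in the RNA of the whole dish. The set held 70 of the 51912 genes counted (22025 of them protein coding). Protein-coding genes were taken by symbol from the axonemal dynein heavy chains (Dnah, 15 genes), dynein intermediate chains (Dnaic, 2), dynein light chains (Dnal1, Dnal4 and Dnali1), radial spoke head genes (Rsph, 8), cilia and flagella associated genes (Cfap, 26), tektins (Tekt, 5) and genes of the nexin-dynein regulatory complex (Drc1, Drc3 and Drc7). *Foxj1*, *Rp1*, *Ccdc153*, *Tmem212*, *Ccdc39*, *Ccdc40*, *Hydin* and *Spag17* were added by name. All 70 passed the filter of at least 10 read pairs over the 18 libraries.

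Cultures came from postnatal day 0 cortices, from as many males as females, and every dish, control dishes included, carried the transgene Tg(Aldh1l1-EGFP/Rpl10a)JD130Htz/J on a B6;FVB background. The promoter of *Aldh1l1*, an astrocyte gene, drives an EGFP-tagged ribosomal protein L10a, so that translating ribosome affinity purification (TRAP) with antibodies to GFP recovers RNA from cells in which that promoter is active. Cells were grown for 14 days, replated and grown for 6 days, kept without serum for 24 h and then given 50 mM ethanol or control medium, again without serum, for 24 h. The groups were IP control (n = 6), IP ethanol (n = 6), input control (n = 3) and input ethanol (n = 3), and the input libraries came from the dishes of IP replicates 4 to 6. The labels number dishes and do not tie a dish to an animal, so the p-values measure the spread between dishes.

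Libraries held 74239854 to 132810705 read pairs on genes (median 84119135), and no pair of libraries within a group agreed within sampling noise (lowest chi-square per degree of freedom 4.06). *Aldh1l1* itself averaged 181 CPM (read counts scaled for library size by the trimmed mean of M values) in the inputs and 375 CPM in the IPs. Over 10 astrocyte markers the summed level was 1103 to 1183 CPM in the inputs and 1733 to 1929 CPM in the IPs (8 higher, 1 lower). Such counts are of markers that passed the test used below, where 25.2% of all genes tested were higher and 25.8% lower. Lists of 10 markers each for other cells moved in either direction, with 9 neuronal and 8 endothelial markers tested. Neuronal markers summed to 161 to 172 CPM in the inputs and 207 to 231 CPM in the IPs (5 higher, 1 lower), and oligodendrocyte lineage markers to 259 to 283 CPM and 378 to 424 CPM (5 higher, 4 lower), so the astrocyte list was not alone in being higher in the IP. Fibroblast markers summed to 636 to 651 CPM and 522 to 572 CPM (3 higher, 6 lower), and endothelial markers to 10.2 to 12.7 CPM and 10.9 to 12.8 CPM (1 higher, 5 lower). A list of 10 microglial markers summed to 84.1 to 101 CPM in the inputs and 14.4 to 18.6 CPM in the IPs (0 higher, 9 lower). The 10 choroid plexus markers summed to 36.2 to 51.7 CPM and 14.0 to 18.3 CPM (0 higher, 7 lower). In RNA from a whole dish, fewer cells of a type and less RNA per cell cannot be told apart.

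A motile cilium is a microtubule axoneme on which rows of dynein motors slide neighbouring doublets past each other. Outer and inner dynein arms are built from heavy, intermediate and light chains, the nexin-dynein regulatory complex and the radial spokes control the motors, and the central pair with its projections sits in the middle. In the brain, motile cilia are best known from the ependymal cells that line the ventricles, in which FOXJ1, together with factors of the RFX family, turns the axonemal genes on. Astrocytes carry a primary cilium, which lacks the central pair and the dynein arms.

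RFX factors bind X-boxes, in which a short core is repeated. The letters GTTGCC, a common form of that core, were searched on both strands of RefSeq promoter windows of GRCm38.p6 that run from 250 bases before to 50 bases after an annotated start. Of the 70 genes, 58 had a window (65 windows), and *Cfap157*, *Cfap53*, *Cfap54*, *Cfap65*, *Cfap73*, *Cfap97*, *Dnah3*, *Foxj1*, *Rp1*, *Rsph1*, *Rsph10b* and *Rsph4a* were not matched. The core was in 21 of the 65 windows (32.3%), those of 19 genes, against 12.5% of all 32851 windows of the table. A looser form, GTTNCC, which includes the first, was in 67.7% of the genes' windows and 45.3% of all. The forkhead core TAAACA was in 18.5% and 13.4%. The 5 windows shown here were picked for carrying the core in genes of differing levels. They run from *Cfap20* at 8.05 CPM per kb of exon to *Cfap161*, which was among the low genes. *Dnaic2* is shown because it was higher with ethanol in both fractions. Of the 7 windows of the 5 matched genes that differed with ethanol in both fractions, that of *Dnaic2* was the 1 with the core (14.3%). Capitals mark the RFX core and, in *Cfap20* only, also the forkhead core.
Cfap20, chr8:95434820-95435119, minus strand: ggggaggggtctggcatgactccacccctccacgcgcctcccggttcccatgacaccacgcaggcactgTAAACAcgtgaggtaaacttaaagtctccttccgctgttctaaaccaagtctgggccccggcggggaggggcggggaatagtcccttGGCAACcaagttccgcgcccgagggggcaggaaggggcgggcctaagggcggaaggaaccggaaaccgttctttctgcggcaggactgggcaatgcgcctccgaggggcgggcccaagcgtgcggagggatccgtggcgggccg
Drc1, chr5:30281143-30281442, plus strand: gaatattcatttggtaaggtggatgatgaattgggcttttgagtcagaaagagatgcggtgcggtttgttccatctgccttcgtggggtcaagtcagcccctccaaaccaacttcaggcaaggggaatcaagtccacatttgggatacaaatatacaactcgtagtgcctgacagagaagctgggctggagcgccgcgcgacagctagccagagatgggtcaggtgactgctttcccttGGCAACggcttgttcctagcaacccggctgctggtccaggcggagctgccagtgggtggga
Dnaic2, chr11:114727169-114727468, plus strand: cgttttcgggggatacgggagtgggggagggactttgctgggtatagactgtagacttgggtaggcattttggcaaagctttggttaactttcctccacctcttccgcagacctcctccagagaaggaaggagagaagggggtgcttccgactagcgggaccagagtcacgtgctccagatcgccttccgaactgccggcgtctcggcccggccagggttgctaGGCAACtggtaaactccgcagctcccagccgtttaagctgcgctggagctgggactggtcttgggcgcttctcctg
Cfap44, chr16:44394549-44394848, plus strand: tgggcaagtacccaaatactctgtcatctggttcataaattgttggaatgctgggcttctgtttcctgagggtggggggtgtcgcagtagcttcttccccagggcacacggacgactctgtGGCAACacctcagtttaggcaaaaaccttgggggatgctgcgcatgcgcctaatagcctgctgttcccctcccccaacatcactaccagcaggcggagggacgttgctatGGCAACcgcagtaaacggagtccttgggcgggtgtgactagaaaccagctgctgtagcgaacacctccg
Cfap161, chr7:83794790-83795089, minus strand: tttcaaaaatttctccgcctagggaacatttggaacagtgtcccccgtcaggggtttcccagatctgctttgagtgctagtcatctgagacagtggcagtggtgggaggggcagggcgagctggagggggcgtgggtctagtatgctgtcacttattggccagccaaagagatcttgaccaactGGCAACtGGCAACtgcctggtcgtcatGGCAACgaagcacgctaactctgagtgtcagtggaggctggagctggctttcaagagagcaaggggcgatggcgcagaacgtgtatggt
In these windows the core lay on the other strand each time and reads GGCAAC. Its first letter lay at -94 from the start in *Cfap20*, where the forkhead core began at -181, at -11 in *Drc1*, at -26 in *Dnaic2*, at -129 and -19 in *Cfap44*, and at -66, -59 and -39 in *Cfap161*. The 19 genes with the core had a median level of 0.365 CPM per kb (0.00647 to 8.05). The 39 without one had a median of 0.239 CPM per kb (0.00168 to 40.3). The ranges overlapped, and the lowest and the highest level were both among genes without the core. These matches describe letters in a window and not bound sites.

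Most of the axonemal genes were present at a low level, and *Foxj1* stood far above the rest. Per kb of exon, *Foxj1* reached 159 CPM per kb, above 99.0% of the 24424 tested genes with a length. The next genes were *Cfap36*, a small protein that is also found outside motile cilia, at 40.3 CPM per kb, *Dnal4*, a light chain, at 16.2, *Rsph9*, a radial spoke head protein, at 10.5, and *Cfap20*, a conserved protein of the doublet microtubules that is also present in cells without motile cilia, at 8.05. *Rsph1*, another spoke head protein, had 7.78 CPM per kb, *Dnal1* 7.66, *Cfap97* 6.63, *Cfap126* 5.22 and *Dnali1*, an inner-arm light chain, 4.99. By library mean, 2 of the 70 genes had at least 100 CPM, 10 had 10 to 100 CPM, 27 had 1 to 10 CPM, 21 had 0.1 to 1 CPM and 10 were under 0.1 CPM. Reads of both strands were counted here, as for the 39 genes of at least 1 CPM used below. On the annotated strand alone, scaled by total counts, group means were 0.199 to 0.45 CPM for *Cfap157* and 0.357 to 0.6 CPM for *Tekt2*, both among the 27. Those of *Rsph3a*, also among the 27, were 19.7 to 21.5 CPM. At least 1 library was at 0 in 9 genes.

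**Figure D1:**
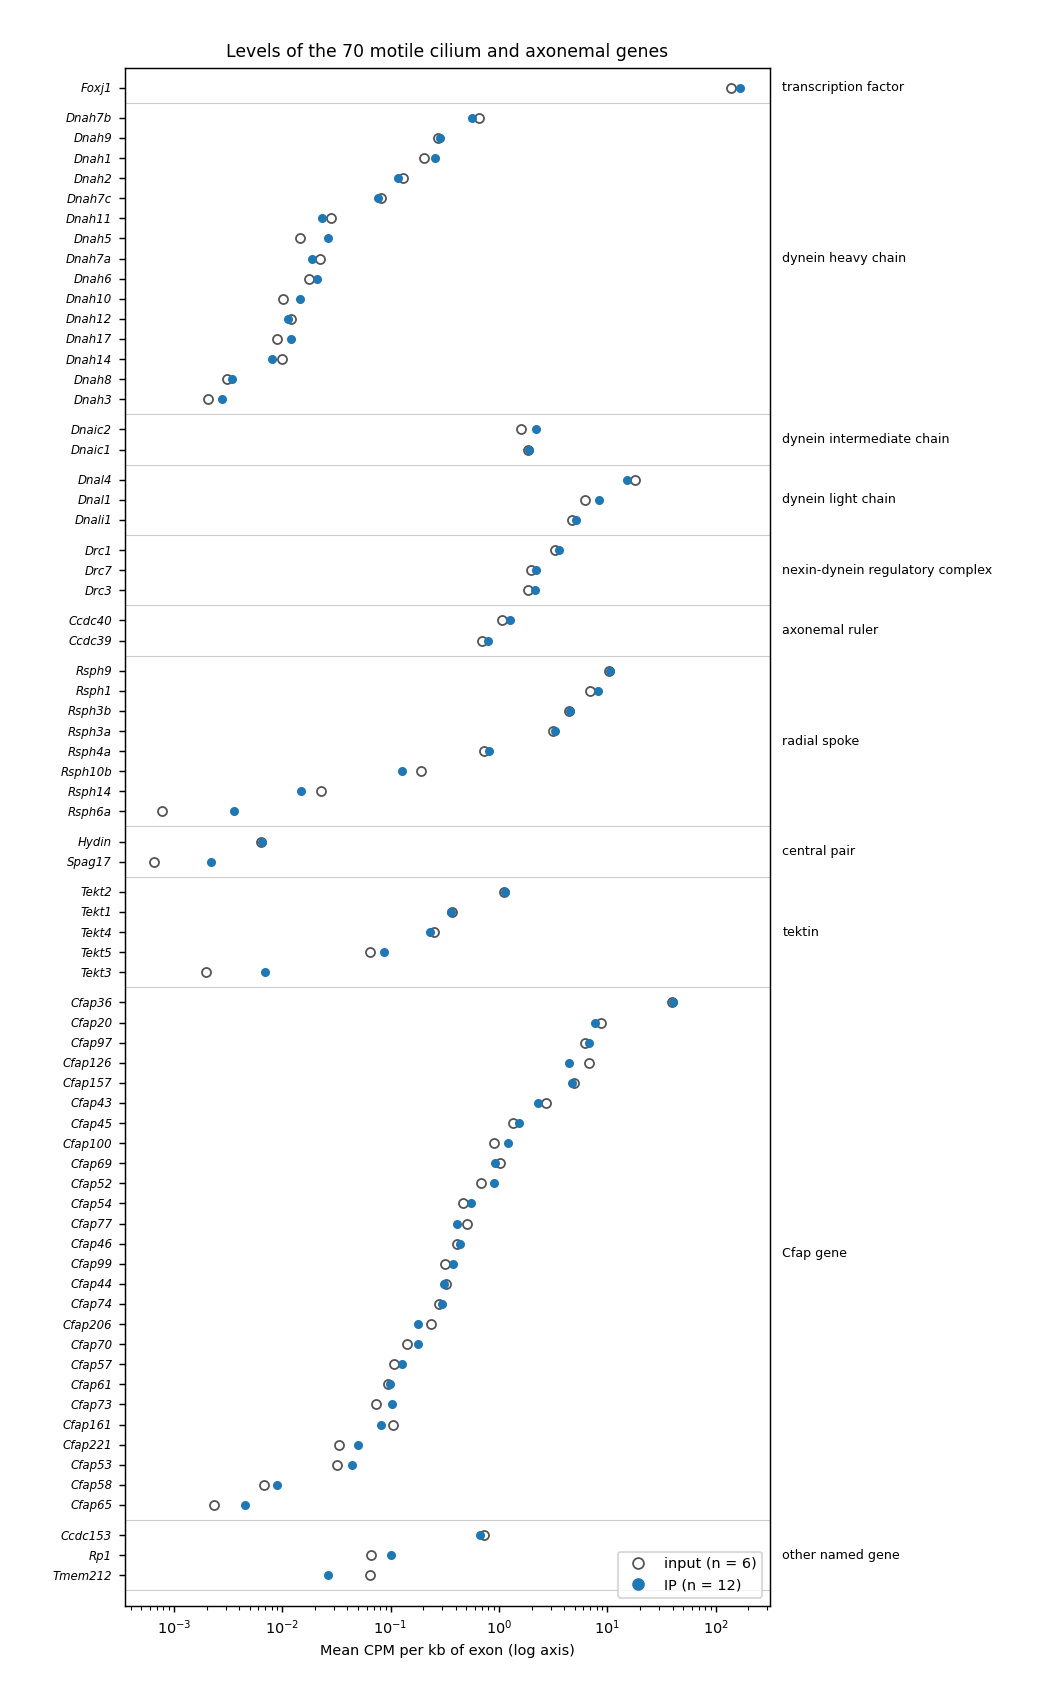
Mean level of each of the 70 genes in CPM per kb of exon (log axis), with open circles for input (n = 6) and filled circles for IP (n = 12), ordered by level within each family. *Foxj1* lay at 159 CPM per kb, the 3 light chains between 4.99 and 16.2, and the heavy chains at 0.592 or below.

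By part of the axoneme, the levels ran as follows. The dynein heavy chains, which are the motors, were low: 4 of 15 averaged 1 CPM or more, the highest was *Dnah7b*, an inner-arm heavy chain, at 0.592 CPM per kb, and the whole family summed to 22.1 to 27.2 CPM in any library. The 3 light chains (4.99 to 16.2 CPM per kb), both intermediate chains (1.88 and 2.01), the 3 Drc genes (2.05 to 3.49) and the axonemal rulers *Ccdc39* (0.765) and *Ccdc40* (1.2), which set the spacing of the inner arms, were all above the highest heavy chain. *Hydin* and *Spag17*, which encode large projections of the central pair, had means of 0.117 CPM (179 read pairs in all 18 libraries) and 0.0143 CPM (23 pairs). *Tmem212*, a gene much used to mark ependymal cells, had 44 pairs in all, and *Ccdc153*, used in the same way, a mean of 1.41 CPM. *Rp1*, a doublecortin-domain protein of the axoneme that is best known from photoreceptors, had a mean of 1.09 CPM. At 1 to 5 read pairs in any library that had some, *Spag17* was too sparse for a difference between groups to be detectable.

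Counts of 5 genes did not come mainly from the annotated strand, and these genes were picked out after their values had been seen. The libraries were stranded while the table analysed is unstranded. On the annotated strand lay 572 pairs of *Cfap157* against 13235 unstranded, 698 against 3313 for *Tekt2*, 462 against 1542 for *Dnah7c*, 114 against 277 for *Dnah17*, and 23 against 134 for *Cfap73*. The unstranded levels of these 5 genes are therefore mostly reads of the opposite strand, and exons of *Tekt2* overlap *Gm12945* on that strand. In 62 of the 70 genes the annotated strand gave at least 90% of the unstranded count. *Rsph3a* had 33447 pairs on its own strand and 15277 unstranded, since a pair that lies on 2 overlapping genes is counted for neither of them without strand. *Dnah7a*, *Dnah7b* and *Dnah7c*, and *Rsph3a* and *Rsph3b*, are near-identical copies, and reads that fit several places were left out of the counts, so their split is uncertain.

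The IP was compared with the input to see which of these RNAs were relatively richer on tagged astrocyte ribosomes. *Foxj1* was higher in the IP by 0.29 on the log2 scale. Also higher were 2 of 15 dynein heavy chains, 1 of 2 intermediate chains and 2 of 3 light chains. All genes of the nexin-dynein regulatory complex and the axonemal ruler in the set were higher too. Among those lower were *Cfap126*, which encodes a microtubule inner protein needed to place basal bodies, the light chain *Dnal4* and the heavy chain *Dnah7b*. By edgeR's quasi-likelihood test with Benjamini-Hochberg adjustment over 24495 genes, 29 of the 70 differed (41.4%), 20 higher and 9 lower in the IP, where 51% of all genes tested differed (25.2% higher, 25.8% lower). Of the 39 genes that averaged 1 CPM or more, 25 differed (64.1%; 18 higher, 7 lower), against 76.3% of all such genes (42.5% higher, 33.8% lower). With total counts in place of the trimmed mean for scaling, 14 of the 70 were higher and 11 lower, and of all genes 20.8% were higher and 30.2% lower. The median log2 fold change was 0.11 over the 70 genes and -0.03 over all genes tested. Libraries of the fractions did not overlap in 11 of the 70 genes (15.7%), against 25% of all genes.

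*Foxj1* lay at 356, 374 and 365 CPM in the input controls, at 374, 359 and 353 CPM in the ethanol inputs, and between 412 and 480 CPM (median 438) in the 12 IPs. The fractions did not overlap, and the difference was 0.29 ± 0.02 (SE; edgeR adjusted p = 9.02e-19). With the other 69 genes summed, the IPs held 487 to 529 CPM and the inputs 478 to 496 CPM, which overlapped.

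Among the dynein genes, *Dnah5*, an outer-arm heavy chain, had the largest increase but few reads. It lay at 0.151 to 0.325 CPM (median 0.224) in the 6 inputs and 0.256 to 0.615 CPM (median 0.425) in the 12 IPs, a difference of 0.89 ± 0.21 (edgeR adjusted p = 1.92e-04). *Dnah1*, an inner-arm heavy chain, went from 2.49 to 2.94 CPM (median 2.64) in the inputs to 3.03 to 3.68 CPM (median 3.35) in the IPs, without overlap (0.32 ± 0.07, edgeR adjusted p = 3.44e-05). *Dnah7b* was lower, at 11.6 to 14.2 CPM in the inputs and 9.62 to 12.8 CPM in the IPs (-0.23 ± 0.04, edgeR adjusted p = 1.31e-05), and the other 12 heavy chains did not pass the test. *Dnaic2*, an intermediate chain of the outer arm, lay at 6.43 to 8.20 CPM (median 7.51) in the inputs and 8.83 to 11.7 CPM (median 9.85) in the IPs (0.45 ± 0.04, edgeR adjusted p = 8.28e-15), and its libraries did not overlap either. The light chains split. *Dnal1*, which binds an outer-arm heavy chain, rose from 41.6 to 44.0 CPM to 53.3 to 63.1 CPM (0.44 ± 0.03, edgeR adjusted p = 1.38e-25), and *Dnali1* was higher by 0.12 ± 0.04 (edgeR adjusted p = 0.0149). *Dnal4* was lower, at 41.1 to 44.9 CPM in the inputs against 34.3 to 40.3 CPM in the IPs (-0.23 ± 0.03, edgeR adjusted p = 8.00e-12).

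The regulatory complex and the rulers were higher by smaller steps. *Drc3* showed 0.23 ± 0.04 with no overlap of libraries (edgeR adjusted p = 2.57e-06). *Drc7* had 0.15 ± 0.05 (edgeR adjusted p = 0.00624) and *Drc1* 0.11 ± 0.04 (edgeR adjusted p = 0.0325), both with overlap. *Ccdc40* was higher by 0.25 ± 0.05 (edgeR adjusted p = 2.14e-05) and *Ccdc39* by 0.17 ± 0.06 (edgeR adjusted p = 0.00580). Of the 8 radial spoke genes, *Rsph1* was higher (0.25 ± 0.04, edgeR adjusted p = 1.13e-06), *Rsph10b* was lower at 0.521 to 0.648 CPM in the inputs and 0.171 to 0.555 CPM in the IPs (-0.57 ± 0.17, edgeR adjusted p = 0.00295; in control libraries alone -0.52, adjusted p = 0.0640), and 6 did not pass, *Rsph9* among them at 15.2 to 18.0 CPM in the inputs and 15.3 to 18.0 CPM in the IPs. None of the 5 tektins, which are filament proteins inside the doublets, and neither *Hydin* nor *Spag17* passed the test, and *Ccdc153* and *Tmem212* did not pass it.

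Cfap genes moved in either direction, with 7 of 26 higher and 6 lower, where 25.2% of all genes tested were higher and 25.8% lower. *Cfap126* had the largest decrease per standard error, at 10.7 to 13.8 CPM (median 11.7) in the inputs and 6.53 to 9.20 CPM (median 7.83) in the IPs (-0.59 ± 0.04, edgeR adjusted p = 1.59e-19), and no IP reached the lowest input. *Cfap43*, a protein of the tether of inner arm dynein, was lower without overlap (-0.24 ± 0.03), as was *Cfap20* (-0.19 ± 0.03), while *Cfap77*, a doublet microtubule protein (-0.29 ± 0.11, edgeR adjusted p = 0.0158), and *Cfap206*, a radial spoke adaptor (-0.39 ± 0.16, edgeR adjusted p = 0.0366), were lower with overlap. The call of *Cfap77* was lost in control libraries alone (-0.23, adjusted p = 0.25). *Cfap206* lost its call in control or ethanol libraries alone (-0.45, adjusted p = 0.0983, and -0.34, adjusted p = 0.275), with no filter on low counts (adjusted p = 0.0618), and without input control replicate 4 or 6, input ethanol replicate 4, IP control replicate 1 or 5, or IP ethanol replicate 1, 4 or 6 (-0.30 to -0.37, adjusted p of 0.0547 to 0.148). In the other direction, *Cfap100* lay at 3.27 to 4.00 CPM in the inputs and 4.34 to 6.00 CPM in the IPs (0.43 ± 0.06, edgeR adjusted p = 7.82e-09). *Cfap52*, a microtubule inner protein, was higher by 0.41 ± 0.09 (edgeR adjusted p = 4.95e-05) and *Cfap70*, an outer-arm protein, by 0.35 ± 0.14 (edgeR adjusted p = 0.0320). The call of *Cfap70* was lost with total-count scaling (0.30, adjusted p = 0.0710) and in control libraries alone, where the difference was 0.12 (adjusted p = 0.676), and it was also lost without input ethanol replicate 6 (0.22, adjusted p = 0.185), IP control replicate 6 (0.31, adjusted p = 0.0640) or IP ethanol replicate 4 (0.32, adjusted p = 0.0513). *Rp1* was higher by 0.61 ± 0.12 (edgeR adjusted p = 8.12e-06), at 0.579 to 1.11 CPM in the inputs and 0.886 to 1.67 CPM in the IPs.

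**Figure D2:**
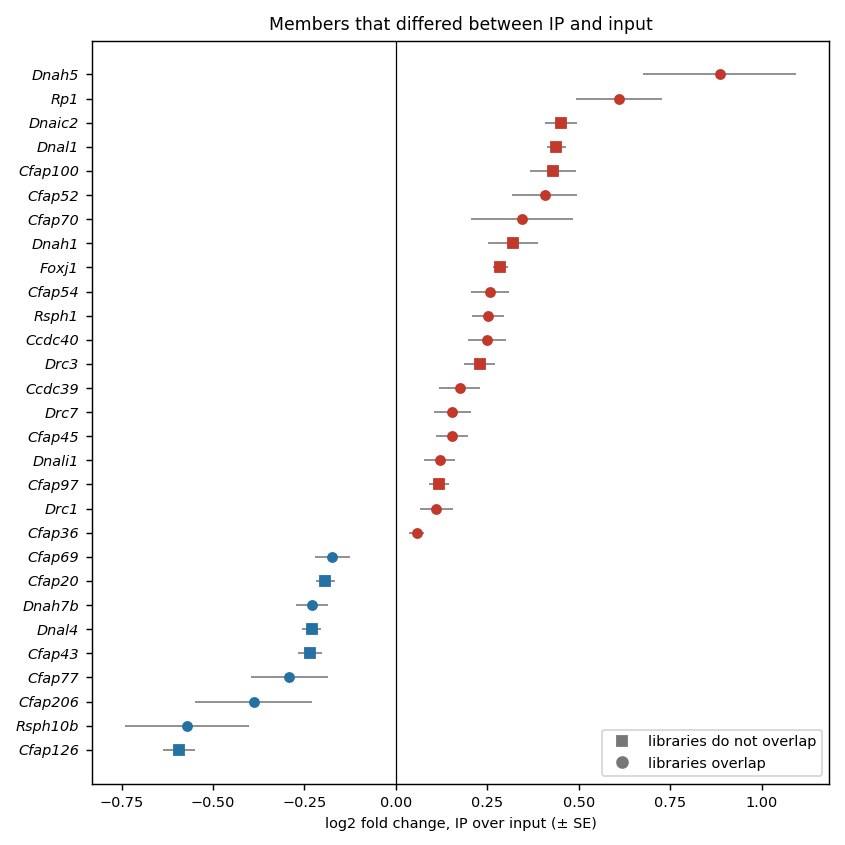
Log2 fold change of IP (n = 12) over input (n = 6) for the 29 genes that passed the test, with bars for 1 SE on each side, squares where no library of the one fraction overlapped the other and circles where they did. The 20 genes above 0 run from *Cfap36* at 0.06 to *Dnah5* at 0.89, and the 9 below from *Cfap69* at -0.17 to *Cfap126* at -0.59.

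On the annotated strand alone, 33 of the 70 genes differed (22 higher, 11 lower), against 53% of all genes in the same fit. *Cfap157* was then higher in the IP (0.64, edgeR adjusted p = 0.00633) and *Tekt2* and *Dnah7c* were lower (-0.63, adjusted p = 3.41e-04, and -0.54, adjusted p = 0.0223), while on unstranded counts these genes had -0.07, 0.00 and -0.09 and did not pass. Of the members, those higher in the IP had a median exon length of 4543.5 bases and those lower 3101 bases. Over all genes tested the same medians were 4856 and 3377 bases, and the part of length in the difference was not tested.

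Ethanol was then compared with control within each fraction, to see which of these RNAs responded to 24 h of 50 mM ethanol. *Dnaic2* was higher with ethanol in both fractions, and *Cfap45*, *Cfap52*, *Cfap126*, *Cfap54*, *Rsph1*, *Dnah9* and *Rp1* were lower in both, by 1.12-fold to 1.53-fold. In the IP, 11 of the 70 genes differed by the edgeR test (15.7%), 3 higher and 8 lower, against 21.4% of all genes tested (11.9% higher, 9.48% lower). In the input, 8 differed (11.4%), 1 higher and 7 lower, against 15% of all genes (7.21% higher, 7.78% lower). Of the 39 genes that averaged 1 CPM or more, 11 differed (28.2%; 3 higher, 8 lower) in the IP against 36.8% of all such genes (20.8% higher, 16% lower), and 8 (20.5%; 1 higher, 7 lower) in the input against 26.4% (12.8% higher, 13.6% lower). The share that differed was below that of all genes in both fractions. The share that was lower (11.4% and 10%) lay near that of all genes (9.48% and 7.78%). The share that was higher (4.29% and 1.43%) was below that of all genes (11.9% and 7.21%). These shares were not tested against each other. At an unadjusted p below 0.05 the input had 12 of the 70 genes (17.1%) against 24.2% of all. The median log2 fold change was -0.01 over the 70 genes in the IP and -0.04 in the input, against 0.01 and 0.00 over all genes. The 8 genes called in the input were all among the 11 called in the IP with the same sign. The input libraries are from the dishes of IP replicates 4 to 6, so these are not independent observations.

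*Cfap45*, a microtubule inner protein of the doublets, was the clearest of the genes that were lower. It lay at 9.28, 8.88 and 8.57 CPM in the input controls and 6.72, 6.87 and 6.39 CPM in the ethanol inputs, and at 9.25 to 10.8 CPM (median 10.1) in the IP controls and 6.73 to 8.21 CPM (median 7.24) in the ethanol IPs. The groups did not overlap in either fraction. The change was -0.45 ± 0.05 in the IP (edgeR adjusted p = 3.59e-10) and -0.42 ± 0.08 in the input. *Cfap52*, another microtubule inner protein, lay at 1.69, 2.28 and 1.65 CPM against 1.13, 1.2 and 1.56 CPM in the inputs and at 2.40 to 2.60 CPM (median 2.48) against 1.5 to 1.98 CPM (median 1.64) in the IPs, again without overlap. Its changes were -0.54 ± 0.09 (IP, edgeR adjusted p = 4.24e-06) and -0.54 ± 0.16 (input, edgeR adjusted p = 0.00818), and without input control replicate 5 the input change was -0.37 and no longer passed (adjusted p = 0.215), as without input ethanol replicate 4 (-0.45, adjusted p = 0.0756).

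*Rsph1* lay at 10.1, 10.8 and 10.6 CPM in the input controls and 7.44, 8.91 and 9.13 CPM in the ethanol inputs, and the groups did not overlap (-0.31 ± 0.07, edgeR adjusted p = 1.71e-04). In the IP it went from 11.3 to 12.8 CPM (median 12.2) to 9.23 to 11.6 CPM (median 10.2), with overlap (-0.22 ± 0.05, edgeR adjusted p = 4.91e-04). *Cfap126* lay at 13.8, 12.8 and 12.5 CPM against 10.9, 11 and 10.7 CPM in the inputs (-0.27 ± 0.06, edgeR adjusted p = 2.97e-04). In the IP it had 7.34 to 9.20 CPM (median 8.60) against 6.53 to 8.01 CPM (median 7.40), which overlapped (-0.19 ± 0.06, edgeR adjusted p = 0.0115).

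*Cfap54*, a large protein of the central apparatus, lay at 8.10, 7.49 and 6.84 CPM against 6.47, 6.29 and 5.87 CPM in the inputs (-0.27 ± 0.08, edgeR adjusted p = 0.00829) and at 7.72 to 9.91 CPM (median 8.44) against 6.88 to 8.72 CPM (median 7.48) in the IPs (-0.17 ± 0.06, edgeR adjusted p = 0.0332). The groups did not overlap in the inputs and overlapped in the IPs. Its IP call was lost without IP control replicate 5 or 6 or IP ethanol replicate 1, 2 or 6 (-0.13 to -0.16, adjusted p of 0.0650 to 0.122), and its input call without input control replicate 4 or input ethanol replicate 6 (-0.21 and -0.24, adjusted p of 0.124 and 0.0588). *Dnah9*, an outer-arm heavy chain, lay at 4.63, 5.07 and 4.87 CPM against 4.69, 3.51 and 3.38 CPM in the inputs (-0.33 ± 0.10, edgeR adjusted p = 0.00796), where ethanol replicate 4 sat among the controls. In the IP it had 4.10 to 5.84 CPM (median 4.84) against 3.94 to 4.45 CPM (median 4.26; -0.19 ± 0.07, edgeR adjusted p = 0.0391), and without IP control replicate 5, the highest, the change was -0.13 (adjusted p = 0.202). The IP call of *Dnah9* was also lost without IP control replicate 4 or 6 or IP ethanol replicate 1, 4 or 5 (-0.17 to -0.19, adjusted p of 0.0570 to 0.0950), and its input call without input control replicate 5 or input ethanol replicate 5 or 6 (-0.25 to -0.30, adjusted p of 0.0609 to 0.116). *Rp1* lay at 1.07, 1.11 and 0.759 CPM against 0.632, 0.579 and 0.716 CPM in the inputs (-0.62 ± 0.22, edgeR adjusted p = 0.0392) and at 1.04 to 1.67 CPM (median 1.48) against 0.886 to 1.27 CPM (median 1.05) in the IPs (-0.40 ± 0.12, edgeR adjusted p = 0.0132). The input call of *Rp1* was lost with DESeq2 (adjusted p = 0.0780), with no filter on low counts (adjusted p = 0.0549) and without input control replicate 4 or 5 or input ethanol replicate 4 or 5 (-0.52 to -0.60, adjusted p of 0.0915 to 0.213). Its IP call was lost in IP replicates 1 to 3 alone (-0.34, edgeR adjusted p = 0.245).

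*Dnaic2* was the one gene of the set higher in both fractions. Input controls had 7.23, 6.59 and 6.43 CPM and ethanol inputs 7.80, 8.20 and 7.98 CPM, and IP controls had 8.83 to 9.83 CPM (median 9.16) and ethanol IPs 9.88 to 11.7 CPM (median 11). Neither pair of groups overlapped. The changes were 0.24 ± 0.05 in the IP (edgeR adjusted p = 8.06e-05) and 0.24 ± 0.08 in the input (edgeR adjusted p = 0.0191). The input call was lost without input control replicate 5 or 6 or input ethanol replicate 5 or 6 (0.20 to 0.24, adjusted p of 0.0503 to 0.123). *Dnaic1*, the other intermediate chain, did not pass in either fraction, at 5.51, 5.43 and 5.32 CPM against 4.70, 5.80 and 4.49 CPM in the inputs.

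**Figure D3:**
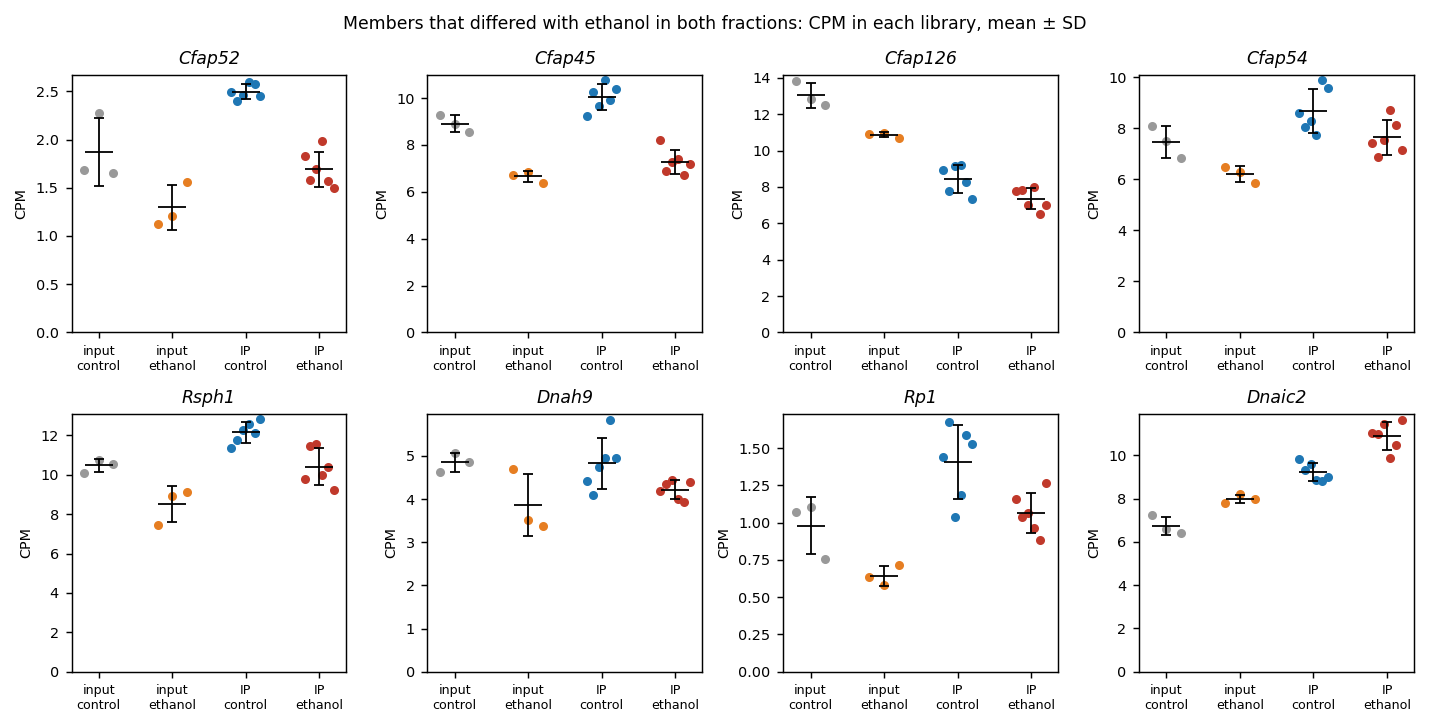
CPM of the 8 genes that differed with ethanol in both fractions, one point a library (input n = 3, IP n = 6 a group), with the mean and 1 SD on each side; each vertical axis starts at 0. *Cfap45*, *Cfap52* and *Dnaic2* show no overlap between control and ethanol in either fraction, while in *Dnah9* one ethanol input of 4.69 CPM sits with the controls.

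A further 3 genes passed in the IP and not in the input. *Cfap69*, a protein of the central apparatus, had 5.83 to 7.24 CPM (median 6.84) in the IP controls and 6.71 to 8.22 CPM (median 7.92) with ethanol (0.19 ± 0.06, edgeR adjusted p = 0.0135). Its call was lost without IP control replicate 1 (0.14, adjusted p = 0.0844) or IP ethanol replicate 4 (0.16, adjusted p = 0.0508). It was also lost in IP replicates 4 to 6 alone (0.13, adjusted p = 0.303). *Cfap36* had 113 to 118 CPM (median 116) and 104 to 113 CPM (median 108), a change of -0.09 ± 0.02 (edgeR adjusted p = 0.00622). The *Cfap36* call was lost in IP replicates 1 to 3 alone (-0.06, adjusted p = 0.310). *Foxj1* had 412 to 448 CPM (median 436) and 431 to 480 CPM (median 452), a change of 0.07 ± 0.02 (edgeR adjusted p = 0.0263). The groups overlapped in all 3 genes. The *Foxj1* call was lost with DESeq2 (adjusted p = 0.0654), with median-of-ratios size factors (adjusted p = 0.0585), with a filter of 0.5 CPM in 3 libraries (adjusted p = 0.0656), in IP replicates 4 to 6 alone (0.03, adjusted p = 0.582) and without IP control replicate 2, 3 or 6 or IP ethanol replicate 2, 3 or 4 (0.05 to 0.07, adjusted p of 0.0663 to 0.165), and in the input its change was -0.02 (adjusted p = 0.748).

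The 69 genes other than *Foxj1* summed to 505 to 529 CPM in the IP controls and 487 to 504 CPM in the ethanol IPs, and to 489 to 496 CPM and 478 to 487 CPM in the inputs. These ranges did not overlap in either fraction but nearly met, and *Cfap36* alone made up 104 to 118 CPM of each IP sum. Control and ethanol did not overlap in 3 of the 70 genes in the IP (4.29%), against 9.96% of all genes, and in 17 genes in the input (24.3%), against 27.1%.

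The dishes of replicates 1 to 3 were sequenced as IP only, so they are the ethanol data that share no dish with an input. In these 6 libraries 5 of the 70 genes passed, 3 higher and 2 lower, against 12.2% of all genes in the same fit. In the IPs of replicates 4 to 6, 9 passed, 1 higher and 8 lower, against 15.2% of all genes. *Cfap45* (-0.38 and -0.54), *Cfap52* (-0.52 and -0.57) and *Dnaic2* (0.23 and 0.25) passed in both sets. *Rsph1* had -0.11 (adjusted p = 0.367) in replicates 1 to 3 and -0.34 in replicates 4 to 6, and *Dnah9* -0.03 (adjusted p = 0.923) and -0.35. The difference between the sets was not tested. *Cfap126* had -0.19 and -0.20 and *Cfap54* -0.19 and -0.17, and neither passed in either set alone.

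**Figure D4:**
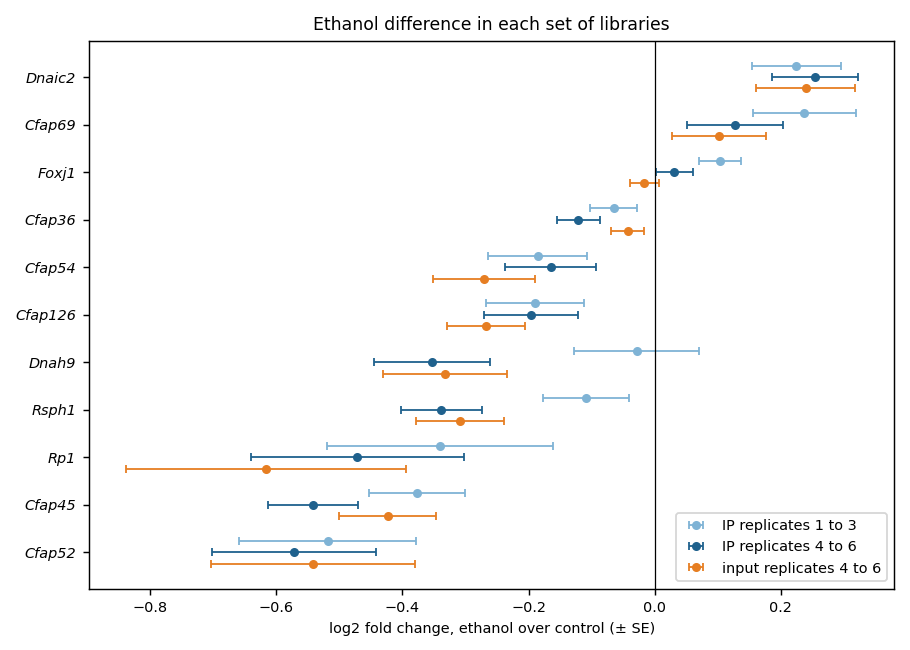
Log2 fold change of ethanol over control with 1 SE on each side in IP replicates 1 to 3, IP replicates 4 to 6 and the inputs of replicates 4 to 6 (3 libraries a group in each set), for the 11 genes called in the IP. *Cfap45*, *Cfap52*, *Rp1*, *Cfap126*, *Cfap54*, *Rsph1*, *Dnah9* and *Cfap36* lie below 0 in all 3 sets, and *Dnaic2* and *Cfap69* above it. In replicates 1 to 3 *Rsph1* (-0.11) and *Dnah9* (-0.03) lie near 0, and *Foxj1* is at -0.02 in the input.

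Whether ethanol changed these genes differently in the fractions was tested as the difference of the changes, IP minus input. None of the 70 genes passed (background 0% of 24495 genes by edgeR), and with an unadjusted p below 0.05 there were 2, *Dnali1* (0.17 ± 0.08, adjusted p = 0.830) and *Rsph4a* (0.35 ± 0.16, adjusted p = 0.813), or 2.86% against 5.96% of all genes. DESeq2 also called none of the 70. The 95% intervals of the difference were -0.22 to 0.13 for *Cfap45*, -0.36 to 0.34 for *Cfap52*, -0.18 to 0.16 for *Dnaic2*, -0.09 to 0.25 for *Rsph1* and -0.00182 to 0.16 for *Foxj1*. For *Rp1* the interval, -0.26 to 0.68, includes differences as large as either of its changes. With the dish as a block over the 12 libraries of both fractions, none of the 70 passed while 102 of all genes did.

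Other genes of the pathway were read from lists that leave out the 70. Beside their counts stand the shares of all genes tested. In the IP against the input 25.2% were higher and 25.8% lower. With ethanol 11.9% were higher and 9.48% lower in the IP, and 7.21% higher and 7.78% lower in the input. Of 15 regulators of multiciliated cells, 8 averaged 1 CPM or more. *Mcidas* and *Gmnc*, which start the multiciliated program, had 177 and 390 read pairs over the 18 libraries, *Trp73* had 583, *Myb* 130 and *Foxn4* 21. The RFX genes were higher in level, and 3 of the 15 regulators were higher and 3 lower in the IP, *Rfx4* going from 50.5 ± 1.36 to 60.6 ± 1.79 CPM (SD, n = 6 and 12; 0.26, edgeR adjusted p = 2.84e-16), *Rfx5* by 0.22, and *E2f4*, which acts with the multiciliated program in centriole amplification, by -0.40. With ethanol 4 were higher and 1 lower in the IP, among them *Rfx7* (0.17), *Rfx3*, a ciliary RFX factor (0.16), and *Rfx5* (0.14), and 1 was higher and 1 lower in the input (*Rfx7* 0.14, *E2f4* -0.12).

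Dynein preassembly factors, which fold and join dynein chains in the cytoplasm, were higher in the IP in 7 of 13 tested and lower in none. Of the 13, 11 averaged 1 CPM or more, and of all genes at that level 42.5% were higher and 33.8% lower in the IP. *Dnaaf3* had 0.51, *Spag1* 0.35 and *Ruvbl2*, an ATPase with many other clients, 0.31. With ethanol 2 were lower in the IP, *Ruvbl2* (-0.17) and *Ruvbl1*, and 1 in the input. *Dyx1c1* and *Pih1d3* were at 0 in every library. Of 4 outer-arm docking genes, *Ccdc151* (0.43) and *Ttc25* (0.38) were higher and *Ccdc114* (-0.20) lower in the IP, and none passed with ethanol in the IP or the input. Of 6 genes of the nexin-dynein regulatory complex under other names, 3 were higher and 1 lower in the IP, and *Ccdc65* was higher in the IP (0.30) and lower with ethanol in both fractions (-0.18 and -0.22). Of 5 central pair genes, *Spef1* was higher (0.64) and *Spag6* lower (-0.44) in the IP, and both were higher with ethanol in the IP (0.25 and 0.55).

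Among 21 other genes of motile cilia, 4 were higher and 2 lower in the IP, with *Fam183b* at -2.05 from a mean of 0.283 CPM in the inputs, and *Ak7* at -0.74 from 0.247 CPM. With ethanol 3 were lower and 1 higher in the IP, and 3 lower and 2 higher in the input. *Meig1* (-0.37 and -0.48), *Wdr78*, a dynein intermediate chain (-0.32 and -0.37), and *Mns1*, a microtubule inner protein (-0.25 and -0.29), were lower in the IP and the input. *Sntn* was at 0 in every library.

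Genes that a primary cilium also needs were at a higher level per length. All 29 genes of intraflagellar transport tested had at least 1 CPM, with a median of 9.58 CPM per kb of exon (0.528 to 29.6), where the 70 axonemal genes had a median of 0.303 CPM per kb. Of the 29, 16 were higher and 8 lower in the IP, with *Ift172* at 0.34, *Dync2h1*, the motor of retrograde transport, at -0.33 and *Hspb11* at -0.75. With ethanol 2 were higher and 6 lower in the IP, and *Ift43* was lower in both fractions (-0.23 and -0.21). Of 20 genes of the BBSome and the primary cilium membrane, 10 were higher and 5 lower in the IP, and with ethanol 7 were higher and none lower in the IP and 3 higher and none lower in the input, among them *Adcy3*, the adenylyl cyclase of neural primary cilia (0.30 and 0.24). All 29 transport genes and 18 of the 20 BBSome and membrane genes averaged 1 CPM or more, and of all genes at that level 42.5% were higher and 33.8% lower in the IP, 20.8% higher and 16% lower with ethanol in the IP, and 12.8% higher and 13.6% lower with ethanol in the input.

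Markers of ependymal cells that are not members of the set were placed beside these results. *Meig1* is in this marker list and also among the other genes of motile cilia above, so it is counted in both lists. Of the 10 listed, 4 were higher and 4 lower in the IP, where 25.2% of all genes tested were higher and 25.8% lower. *Rarres2* was higher by 0.70, *Acta2* by 0.43, *Ccdc146* by 0.39 and *Vit* by 0.23. In the other direction *Calml4* changed by -1.98, *Fam216b* by -1.58, *Cd24a* by -0.76 and *Tm4sf1* by -0.54. The summed level was 1548 to 1609 CPM in the input controls, 1128 to 1207 CPM in the ethanol inputs, 1793 to 1926 CPM in the IP controls and 1219 to 1412 CPM in the ethanol IPs. *Acta2*, which smooth muscle and myofibroblasts also express, made up most of it (a mean of 1589 CPM in the IP controls and 1069 CPM in the ethanol IPs). With ethanol *Acta2*, *Rarres2* and *Meig1* were lower in the IP and *Vit* was higher, where 9.48% of all genes were lower and 11.9% higher. *Cd24a* (0.05, edgeR adjusted p = 0.453), *Fam216b* (-0.11, adjusted p = 0.846), *Calml4* (-0.21, adjusted p = 0.680), *Mia*, *Tm4sf1* and *Ccdc146* did not pass there. In the input 0 of the 10 were higher and 2 lower with ethanol, against 7.21% and 7.78% of all genes. The part of ependymal cells in the axonemal differences was not tested.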

How the data were processed

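Read pairs per gene were measured by stranded RNA-seq of total RNA depleted of ribosomal RNA (Illumina) in 18 libraries of TRAP (IP) and input RNA. The authors trimmed reads with Trimmomatic, aligned them with STAR to GRCm38 and deposited raw, unstranded read counts per gene, which equal the unstranded column of the deposited counts of single libraries (0 differences). SAMtools is also named in the submitters' processing notes, and tool versions are not given in the sources used here. Multimapping pairs (mean 3.60%) and pairs on overlapping genes (mean 5.50%) were not counted. Symbols turned into dates (27) were restored by gene identifier.

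From the counts, CPM with TMM scaling and log2 fold changes were computed here with edgeR 4.0.16 (R 4.3.3). The fits were glmQLFit and glmQLFTest on the 24495 genes with at least 10 counts over the 18 libraries. IP versus input had a term for treatment. Adjustment was by Benjamini-Hochberg over all tested genes, with a threshold of 0.05. Standard errors were derived as the absolute log2 fold change over the square root of the F statistic. The 95% intervals are 1.96 such errors on each side, and both are approximations. The script was tested on simulated data. Errors of fold changes are SE, and those of levels SD. Depth was 74239854 to 132810705 counts per library, and counting error alone makes levels under 0.1 CPM imprecise. Exon length, positions and overlaps came from GENCODE M21 on GRCm38, and promoters from RefSeq GRCm38.p6.

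Input and IP libraries of replicates 4 to 6 come from the same dishes, which makes the dish a true block (correlation of their deviations from group means 0.0191 to 0.153). Dishes of the 2 treatments have no link beyond their numbering. The genes and all lists were chosen with earlier results of these data known. Genes named in the text are the 8 added by name, the 10 with the highest CPM per kb, in each comparison up to 8 with the largest increase and 8 with the largest decrease among those past the threshold that averaged 0.1 CPM or more, and up to 3 per pathway list and comparison. Marker genes, the genes of the strand check, the Drc genes, *Dnaic1*, *Rsph4a*, the regulators near 0 and the promoters shown were named after their values had been seen. Alternatives were DESeq2 1.42.0, other scalings and filters, the annotated strand, a test against a fold of 1.2, blocks and leaving out each library.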

Additional observations from a re-analysis of the deposited data

Results flagged for a closer look

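Over 68 groups of 6 IP libraries (the named members of the set and 2 sums over members, in IP control and IP ethanol), 2 single libraries lay apart from their group by Dixon's criterion, where chance flags about 1 in 20 groups. *Cfap97* was at 33.9 CPM in IP control replicate 1 and at 35.2 to 35.9 CPM in the other 5 (ratio 0.631). *Cfap70* was at 1.03 CPM in IP control replicate 6 and at 0.671 to 0.776 CPM in the other 5 (ratio 0.705), and without that library its higher level in the IP was 0.31 and no longer passed (edgeR adjusted p = 0.0640).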

How the results depend on the processing

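Direction was followed for the largest called changes of the set, up to 8 higher and 8 lower in each comparison. None of these turned its direction under any alternative run. Other called changes named in the text were not checked for direction. Tested against a fold of 1.2 instead of no change, 7 genes differed between IP and input (5 higher, 2 lower) instead of 29, 1 with ethanol in the IP (*Cfap45*) instead of 11, and 0 with ethanol in the input instead of 8 (all genes: 20.2%, 0.388% and 0.225%), while at an unadjusted p below 0.05 against no change the input had 12. DESeq2 called 29, 11 and 7 (all genes: 50.3%, 22.8% and 12.8%). IP replicates 1 to 3 alone gave 5 calls with ethanol (12.2% of all genes), with 3 dishes a group instead of 6. Leaving out single libraries gave 27 to 30 calls for IP versus input, 8 to 12 for ethanol in the IP, 4 to 7 for ethanol in the input, and 0 to 0 for the difference of the changes. The fewest in the input came without input control replicate 5 (4 calls), and without input ethanol replicate 5 or 6 there were 5. With the dish as a replicate block over 12 libraries, 30 genes differed between IP and input, as without the block in the same libraries, and 0 in ethanol effect. With the replicate number as a block, ethanol gave 12 calls in the IP and 8 in the input, and those dishes share only a number (correlations of same-numbered deviations -0.104 to 0.221). Using the annotated strand together with the dish block, an alternative chosen after seeing the data, gave 0 calls for the difference of the changes. For called genes under 1 CPM the read count limits the precision.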
